A study of Mus musculus with 9 samples.

Results

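Kidneys of Trex1-/- mice treated with SN-011, an antagonist of STING, were compared with kidneys of wild-type mice, 3 RNA-Seq libraries against 3, out of the 9 libraries in the series. The other 3 libraries, from Trex1-/- mice given vehicle and labelled PBS, were set beside them to tell which differences were also seen without the antagonist. All mice were C57BL/6J. Trex1-/- mice lack the gene in every cell, came from crosses between heterozygotes, and were injected into the peritoneum daily for 2 weeks from an age of 1 month, either with SN-011 at 10 mg/kg or with Tween 80 in PBS. Wild-type mice were bought at an age of 4 to 8 weeks, and no injection is stated for them, so that genotype, source of the animals, injection and antagonist cannot be told apart in the comparison with wild type. Each library was treated as a replicate, and litters and cages are not stated, so the p-values measure the spread between these libraries.

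TREX1 is a DNA exonuclease that clears DNA from the cytosol. Without it, the sensor cGAS makes the messenger cGAMP, which binds STING, and STING activates the kinase TBK1 and the transcription factor IRF3. Type I interferon made in this way acts through its receptor and factors such as STAT2 and IRF9, which bind the interferon-stimulated response element (ISRE) in the promoters of antiviral genes. Trex1-/- mice are a model of lupus-like autoinflammation, in which the kidney is among the organs affected. SN-011 occupies the cGAMP-binding pocket of STING.

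The SN-011 libraries held 16118813 to 18648402 counts and the wild-type libraries 17671263 to 21928965, and 16646 genes passed the filter on low counts. Kidney markers were high throughout, for instance the phosphate carrier Slc34a1 at 4291 to 5559 CPM (counts scaled to a common library size with TMM factors, as are all levels here), while the muscle marker Myh4 was at 0 in all 9 libraries. Trex1 had 0 counts in all 9 libraries, wild type included, and its annotated span lies within that of Atrip, so the counts did not check the genotype. A count of 0 allows up to 3 counts, or 0.137 to 0.186 CPM in these libraries, counting error only. Y-linked transcripts summed to 157 CPM in wild-type replicate 3, to 203 CPM in SN-011 replicate 2 and to 166 to 177 CPM in the PBS libraries, against at most 0.377 CPM in the other 4 libraries, which held 411 to 497 CPM of Xist. Sex was thus balanced between SN-011 and wild type and not between either group and PBS. Along the first principal component, with 37.5% of the variance, the Xist libraries stood apart from the others.

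Between SN-011-treated Trex1-/- kidney and wild type, 213 genes were called by edgeR's quasi-likelihood test at an adjusted p under 0.05, which is 1.28% of the genes tested. Of these, 137 were higher (0.823% of the genes tested) and 76 were lower (0.457%), and the largest changes were a 3.80 rise of Zbtb16 and a 4.74 fall of Rpl29 on the log2 scale. The SN-011 and wild-type libraries did not overlap for any of the 213, beside 21.7% of all genes tested. Every one of the 213 was also called when a Y-linked term was added, a fit that called 656 genes (3.94%), 338 higher (2.03%) and 318 lower (1.91%). The count fell to 38 when wild-type replicate 1 was left out, to 48 when replicate 2 was, to 102, 106 and 124 without PBS replicates 1, 2 and 3, and to 43 when only the 6 libraries entered the fit, whereas it rose to 376 without SN-011 replicate 2. In that last fit 145 genes were higher and 231 lower, so most called genes were lowered. Across 18 other ways of processing the data, which are alternatives in scaling, filter, test, covariate or libraries, 26 of the 213 genes were called in each, 22 of them raised and 3 lowered in both Trex1-/- groups.

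The 213 genes fell into 3 classes by their own values in vehicle-treated Trex1-/- kidney, where 313 genes (1.88%), 240 of them higher (1.44%), were called against the same wild-type libraries. The first class held 132 genes called in both Trex1-/- groups, 107 higher and 25 lower, all in the same direction. The second held 46 genes called with SN-011 that had an unadjusted p under 0.05 with PBS without being called. The third held 35 genes, 17 higher and 18 lower, with an unadjusted p of 0.05 or more with PBS. Without PBS replicates 1, 2 and 3 or wild-type replicates 1 and 2, the count of genes called in both groups was 72, 74, 85, 28 and 34. The third class ranged from 2 genes without wild-type replicate 2 to 134 without SN-011 replicate 2. Both comparisons used the same wild-type libraries, so these counts sort the genes and are not independent of each other. Tested directly, SN-011 against PBS gave 0 called genes (0%) by the quasi-likelihood test, with 1905 genes (11.4%) at an unadjusted p under 0.05. The DESeq2 Wald test called 183 and edgeR's exact test 127 in that contrast, and the quasi-likelihood test called 519 without SN-011 replicate 2 and 22 without SN-011 replicate 3.

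**Figure D1:**
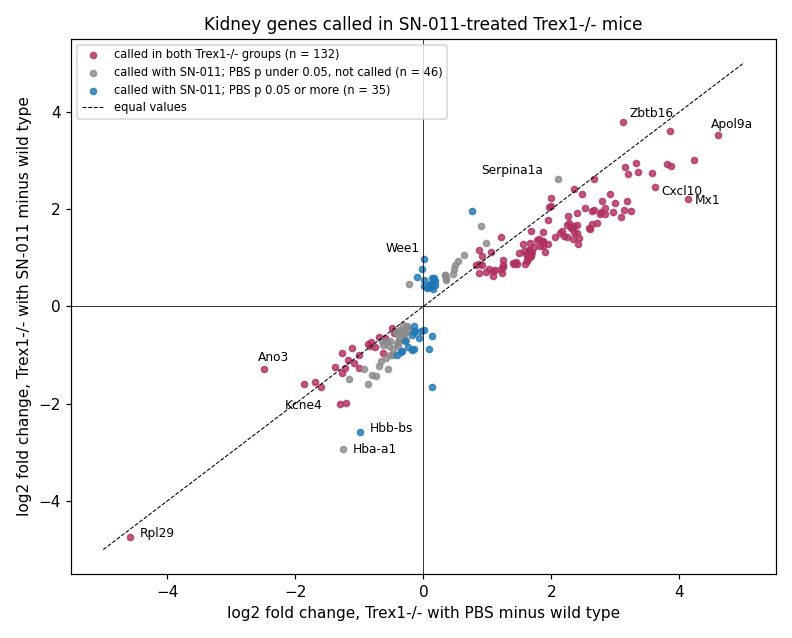
Log2 fold change of the 213 called genes in SN-011-treated Trex1-/- kidney (vertical axis) against their log2 fold change in PBS-treated Trex1-/- kidney (horizontal axis), both relative to the same 3 wild-type libraries, with 1 point per gene and colour for the 3 classes. The 107 genes raised in both groups lie mostly below the line of equal values, while the 35 genes of the third class lie between -0.99 (Hbb-bs) and 0.76 (Gm48225) on the horizontal axis.

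Antiviral effectors, the products that block viral replication, stayed raised under SN-011. Of 44 tested, 32 rose and 0 fell, with a median log2 fold change of 1.23 over the list beside -0.003 over all genes. With PBS 39 of the 44 rose and the median was 1.88, and the direct SN-011 minus PBS median was -0.74. Apol9a, an interferon-induced apolipoprotein L, had 1.56, 1.31 and 1.79 CPM in wild type, 14.3, 21.4 and 17.6 with SN-011 and 31.0, 45.8 and 35.6 with PBS. The 3 groups did not overlap, and the SN-011 rise over wild type was 3.52 ± 0.22 (SE) on the log2 scale with an adjusted p of 0.000113. Oas2, a 2',5'-oligoadenylate synthetase that activates RNase L, had 5.99, 6.64 and 7.12 CPM in wild type and 33.7, 54.2 and 43.2 with SN-011. Its log2 fold change was 2.73 ± 0.19 (adjusted p = 0.000205), and its highest SN-011 library lay within the PBS range of 52.6 to 71.8 CPM.

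Further interferon-stimulated genes lay between wild type and PBS. Isg15, a ubiquitin-like modifier, had 4.90, 6.05 and 8.85 CPM in wild type, 17.8, 30.1 and 29.2 with SN-011 and 49.6, 76.7 and 59.4 with PBS, and its log2 fold change of 1.97 over wild type with SN-011 (adjusted p = 0.00908) stood beside 3.24 with PBS. Ifit3, a member of the family that binds viral RNA, rose by 1.53 ± 0.18 with SN-011 (adjusted p = 0.00424) and by 2.36 with PBS. Oasl1, an OAS-like protein that restrains Irf7 translation, had 3.16 to 5.15 CPM in wild type, 18.4 to 33.7 with SN-011 and 37.8 to 55.5 with PBS. Usp18, which removes ISG15 and dampens the interferon receptor, rose by 1.95 ± 0.18 (adjusted p = 0.00206). Zbp1, a sensor of Z-form nucleic acid that can start necroptosis, had 2.92, 3.30 and 5.84 CPM in wild type and 8.56, 16.5 and 14.5 with SN-011, a log2 rise of 1.72 ± 0.31 (adjusted p = 0.0308) that was not called in 6 of the 18 alternatives. Mlkl, which carries out necroptosis, was not called with SN-011 (log2 fold change 0.55 ± 0.29, adjusted p = 0.348). Of the 32 antiviral genes called, 13 were still called when wild-type replicate 1 was left out, 13 when replicate 2 was and 17 in the fit of the 6 libraries.

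The ISRE was looked for in RefSeq promoters (GRCm38.p6), 250 bases before to 50 after each gene start, as GAAANNGAAA on either strand. Among the 107 genes raised in both groups, 74 had a promoter in the table and 34 of these (45.9%) held the motif, beside 461 of 11809 (3.9%) over all genes tested. Of the 35 genes of the third class, 22 had a promoter, 10 higher and 12 lower, and 0 held these letters. The motif and its flanks are shown for 6 of the genes raised in both groups that held it upstream of the start. These 6 genes are examples and not a full ranking by p. The element was chosen because interferon acts through it. Bases run 5′ to 3′ on the gene's strand with the motif in capitals.

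Apol9a, chr15:77411120-77411149, minus strand: gaggtgagacTTTCAGTTTCcatttcccag

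Apol9b, chr15:77729025-77729054, plus strand: gaggtgagacTTTCAGTTTCcatttcccag

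Oas1a, chr5:120907526-120907555, minus strand: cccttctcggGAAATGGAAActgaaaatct

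Oas1g, chr5:120887614-120887641, minus strand: cccttctcggGAAATGGAAActgaaaat

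Cxcl10, chr5:92349083-92349112, minus strand: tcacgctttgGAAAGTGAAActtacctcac

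Ifit1, chr19:34640775-34640804, plus strand: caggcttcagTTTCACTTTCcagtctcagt

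The windows of the neighbours Apol9a and Apol9b were identical in all 30 bases, and those of Oas1a and Oas1g in all 28 bases compared. Such pairs also share coding sequence, so that the division of reads within a pair is uncertain. A match of this kind is a description of the sequence and not a measured binding site.

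Of the interferon signalling genes and nucleic acid sensors, 9 of 30 rose and 0 fell with SN-011, with a median log2 fold change of 0.62 beside 0.84 with PBS. Irf7, which amplifies interferon transcription, had 20.8, 24.1 and 37.4 CPM in wild type, 66.9, 117.6 and 110.2 with SN-011 and 202 to 272 with PBS. The SN-011 group lay between the other groups without overlap, and Irf7 rose by 1.84 ± 0.25 over wild type (adjusted p = 0.0103). The interferon-responsive factors Stat2 and Irf9 rose by 0.92 ± 0.13 (adjusted p = 0.011) and 0.69 ± 0.09 (adjusted p = 0.00908), and Ddx58, the RNA sensor RIG-I, by 0.81 ± 0.11 (adjusted p = 0.0103). Of the 9, 0 were called when wild-type replicate 1 was left out and 0 when replicate 2 was, and the count was 4 in the fit of the 6 libraries. The genes for STING and cGAS themselves did not pass the test. Sting1, listed as Tmem173, had 5.33, 4.15 and 7.69 CPM in wild type and 6.18, 6.32 and 6.35 with SN-011 (log2 fold change 0.14 ± 0.23, adjusted p = 0.795), and Cgas, at 0.424 to 0.948 CPM in wild type and 0.772 to 1.59 with SN-011, gave 0.69 ± 0.41 (adjusted p = 0.417).

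GTPases of the guanylate-binding and immunity-related families, which attack vacuoles that hold pathogens, rose in 8 of 16 cases with SN-011 and in 13 of 16 with PBS, with medians of 1.37 and 1.84. Irgm1, a regulator of this family, had 48.6, 48.5 and 67.1 CPM in wild type and 127.9, 149.3 and 153.3 with SN-011, a rise of 1.39 ± 0.15 (adjusted p = 0.00369). Tgtp2 rose by 1.66 ± 0.22 (adjusted p = 0.00908), Igtp by 1.67 ± 0.26 (adjusted p = 0.0168) and Gbp2 by 1.35 ± 0.20 (adjusted p = 0.0119). The count of 8 became 2 without wild-type replicate 1 or 2 and in the fit of the 6 libraries, 5 without any 1 of the PBS libraries or SN-011 replicate 3, and 13 without SN-011 replicate 1, the library with the lowest median of the list in its group.

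MHC class I genes and immunoproteasome subunits, which present peptides to CD8 T cells, rose in 8 of 20 cases with SN-011 and in 15 of 20 with PBS, with medians of 0.61 and 1.05. H2-K1 had 389, 439 and 512 CPM in wild type, 819, 1021 and 995 with SN-011 and 1327 to 1525 with PBS. The 3 groups did not overlap, and the rise with SN-011 was 1.08 ± 0.13 (adjusted p = 0.0066). The class I genes H2-Q6 and H2-Q7 rose by 0.96 ± 0.11 and 1.13 ± 0.13, and Nlrc5, the transactivator of class I genes, by 1.53 ± 0.22 (adjusted p = 0.011). The count of 8 became 3 without wild-type replicate 1 or 2, and 4 without any 1 of the PBS libraries, without SN-011 replicate 3 and in the fit of the 6 libraries. Of 10 MHC class II genes 0 were called with SN-011 (7 at an unadjusted p under 0.05, beside 18.01% of all genes tested, 5 by the DESeq2 Wald test and 4 by the exact test) and 4 with PBS, and Cd74, the invariant chain, gave 1.10 ± 0.23 (adjusted p = 0.0557). With the Y-linked term 5 of the 10 were called higher with SN-011 and 1 lower.

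Cxcl10, a ligand that draws activated T cells through CXCR3, was the 1 gene called by the quasi-likelihood test among 15 chemokines and adhesion genes (9 at an unadjusted p under 0.05, beside 18.01% of all genes tested, 4 called by the DESeq2 Wald test and 4 by the exact test). It had 4.20, 3.88 and 3.82 CPM in wild type, 14.5, 28.8 and 21.7 with SN-011 and 40.4, 62.4 and 42.9 with PBS. All SN-011 libraries lay above wild type and below PBS, with a log2 fold change over wild type of 2.45 ± 0.26 (adjusted p = 0.00343), and the call held in all 18 alternatives. M7core, the STING-dependent signature that the study derived in other cells, had 51 of 156 tested genes called higher and 0 lower with SN-011 and 89 higher with PBS, with medians of 0.54 and 0.99. The M7core count of 51 became 14 and 13 without wild-type replicates 1 and 2 and 21 in the fit of the 6 libraries, and 77 by the DESeq2 Wald test.

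**Figure D2:**
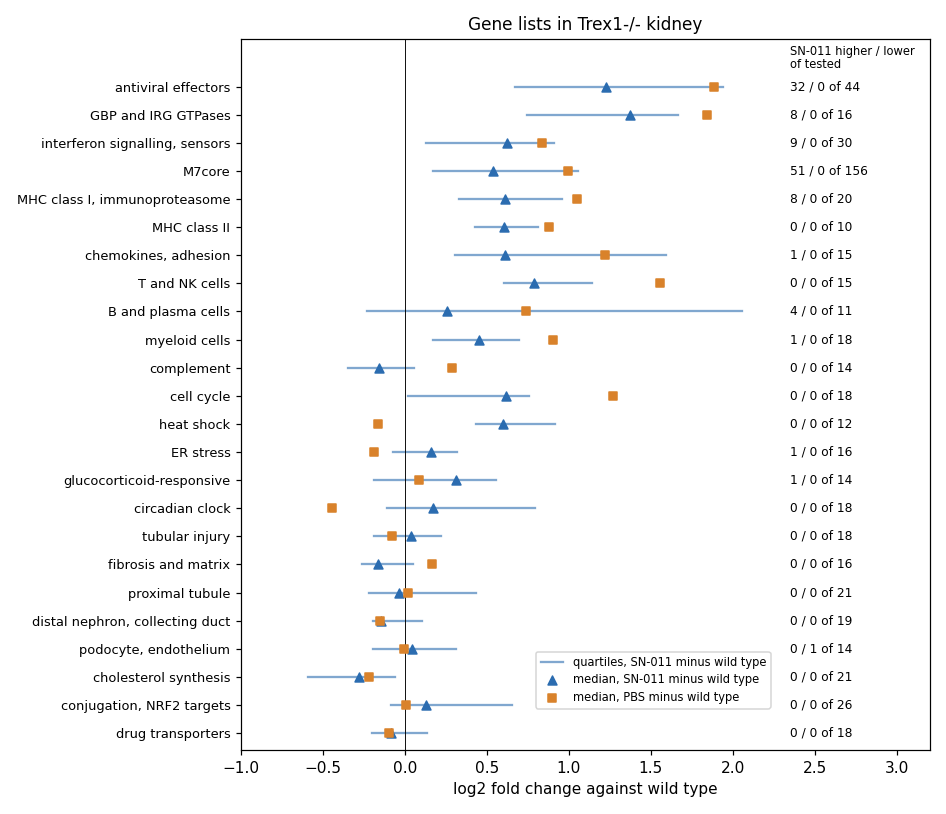
Median log2 fold change against wild type of each gene list with SN-011 (triangles, with a line from the lower to the upper quartile over the members) and with PBS (squares), and the number of members called higher and lower with SN-011 of those tested. The interferon, GTPase and MHC lists have SN-011 medians of 0.60 to 1.37, each below its PBS median, while the heat shock list has 0.60 with SN-011 and -0.16 with PBS. The values are from the fit without the Y-linked term, and sex was not balanced between SN-011 and PBS.

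A few immunoglobulin genes were called higher in both Trex1-/- groups. Of 36 immunoglobulin genes tested by biotype, 5 rose with SN-011 (Igkv10-96, Iglv1, Ighg2b, Igha and Igkc) and 6 with PBS, with medians over the 36 of 2.21 and 2.28 and an SN-011 minus PBS median of -0.07. With the Y-linked term that median turned to 0.51, and the PBS libraries were all Y-positive while those with SN-011 were mixed. The filter on low counts kept 36 of 268 such genes, and all 36 lay above wild type with SN-011. A segment low in wild type could pass only through groups where it was high, so the filter favoured positive medians against wild type. Igha, the constant region of IgA, had 33.3, 15.1 and 40.7 CPM in wild type, 84.3, 187.4 and 101.9 with SN-011 and 137.1, 105.8 and 112.8 with PBS. The SN-011 and PBS libraries overlapped and both lay above wild type, with log2 fold changes of 2.07 ± 0.37 (adjusted p = 0.0281) and 2.00. Igkc, the kappa constant region, rose by 2.04 ± 0.32 with SN-011, and Ighg2b, the constant region of IgG2b, by 2.41 ± 0.32. Jchain, which joins units of IgA and IgM in plasma cells, had 4.81, 2.66 and 5.55 CPM in wild type and 11.2, 30.8 and 19.2 with SN-011, a rise of 2.24 ± 0.36 (adjusted p = 0.0185). The direct SN-011 minus PBS differences of these constant region genes and Jchain were 0.06 to 0.25, with standard errors of 0.28 to 0.35, and 0.41 to 0.73 with the Y-linked term, where the adjusted p was 0.406 to 0.721. None of these 4 was called without wild-type replicate 1 or in the fit of the 6 libraries, and Jchain and Igha were not called without wild-type replicate 2. Igha was also lost without each PBS library. The count of 5 immunoglobulin genes became 1 in the fit of the 6 libraries or with wild-type replicate 1 left out, 3 with wild-type replicate 2, PBS replicate 1 or PBS replicate 2 left out or with a mean of at least 50 counts required, and 8 with SN-011 replicate 3 or wild-type replicate 3 left out or with the Xist libraries alone. It was 9 with the Y-linked term, 10 by the DESeq2 Wald test, 12 by the exact test and 22 with no filter on low counts.

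Of 11 B and plasma cell genes tested, 4 rose with SN-011, namely Igha, Igkc, Ighg2b and Jchain, and 7 did not pass the test. The list had 7 of 11 log2 fold changes above 0 and a median of 0.25, and its summed level was 375 to 560 CPM with SN-011, 242 to 261 in wild type and 342 to 405 with PBS. In whole tissue, more cells of a type and more RNA per cell cannot be told apart. Of 15 T and NK cell genes 0 were called with SN-011 by the quasi-likelihood test (7 at an unadjusted p under 0.05, beside 18.01% of all genes tested, 1 by the DESeq2 Wald test and 1 by the exact test) and 3 with PBS, and the summed level was 15 to 32.6 CPM with SN-011, 11.8 to 17.0 in wild type and 31.7 to 49.6 with PBS. Cd4, the T helper cell co-receptor, had 1.08, 0.768 and 1.16 CPM in wild type and 1.47, 2.84 and 3.15 with SN-011, without passing the test (adjusted p = 0.0847). Of 18 myeloid genes 1 was called higher with SN-011 by the quasi-likelihood test (7 at an unadjusted p under 0.05, beside 18.01% of all genes tested, 3 called by the DESeq2 Wald test, 2 by the exact test and 3 with the Y-linked term) and 5 with PBS. This gene, Ly6c2, a marker of inflammatory monocytes that also responds to interferon, rose by 1.90 ± 0.36 (adjusted p = 0.0379), and the call was lost without each PBS and wild-type library, without SN-011 replicate 3 and in the fit of the 6 libraries (adjusted p = 0.143). The summed level of the myeloid genes was 200.1 to 307.1 CPM with SN-011, at most 245.6 in wild type and 335 to 376 with PBS. The part of these cells in the interferon-related differences was not tested.

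**Figure D3:**
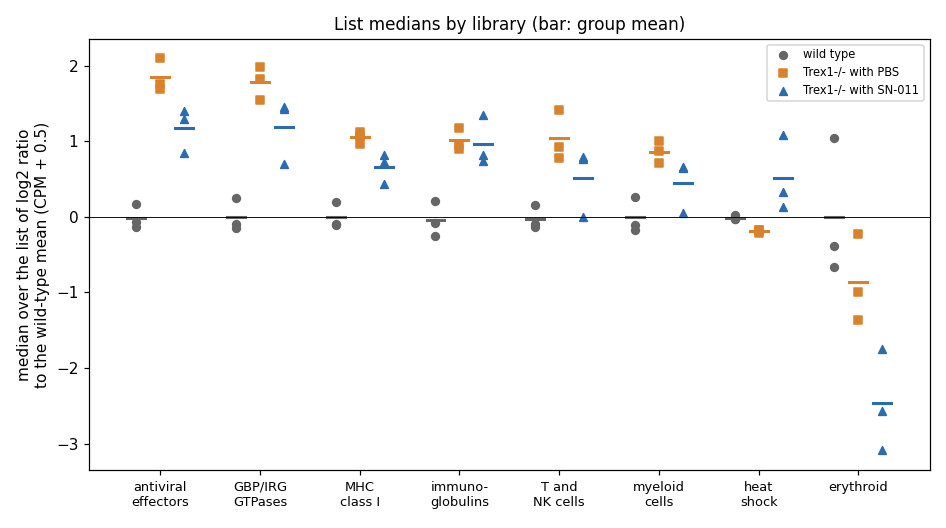
Median over each list of the log2 ratio of CPM (plus 0.5) to the wild-type mean, 1 point per library, with a bar at the group mean, for wild type (circles), PBS (squares) and SN-011 (triangles). In the antiviral list SN-011 replicate 1 is lowest of its group at 0.85, in the heat shock list SN-011 replicate 2 is highest at 1.08, and the immunoglobulin medians of SN-011 (0.74 to 1.35) and PBS (0.90 to 1.18) overlap.

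Zbtb16 had the largest rise of the genes called in both groups, and its SN-011 and PBS libraries overlapped. This transcription factor, also called PLZF, is needed by innate-like T cells and responds to glucocorticoids in many tissues. It had 6.51, 3.30 and 2.60 CPM in wild type, 60.3, 78.6 and 35.0 with SN-011 and 42.3, 42.7 and 23.8 with PBS. The log2 fold change over wild type was 3.80 ± 0.40 with SN-011 (adjusted p = 0.00343) and 3.12 with PBS, and that of SN-011 minus PBS was 0.68 ± 0.35 (unadjusted p = 0.08). Zbtb16 was the 1 gene called by the quasi-likelihood test of 14 glucocorticoid-responsive genes (4 at an unadjusted p under 0.05, beside 18.01% of all genes tested, 3 called by the DESeq2 Wald test, 3 by the exact test and 2 with the Y-linked term), whose median was 0.31 with SN-011 and 0.09 with PBS. Its call held in all 18 alternatives.

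Other genes with large rises in both groups were the interferon-induced Apol9b, Slfn4, Ubd and Oas3 and the predicted GTPase gene Gm4841, with log2 fold changes of 2.76 to 3.02 with SN-011. Slfn4, a schlafen gene of myeloid cells, had 0.377, 0.497 and 1.56 CPM in wild type, 5.44, 4.81 and 7.95 with SN-011 and 6.88, 7.65 and 9.01 with PBS, so the SN-011 and PBS groups overlapped. Ubd, a ubiquitin-like protein induced by interferon gamma, had 0.0943, 0.452 and 0.463 CPM in wild type and 1.30, 3.88 and 2.49 with SN-011 (2.92 ± 0.56, adjusted p = 0.0383). Igkv10-96, a kappa variable segment, had 0.236, 0.316 and 0.347 CPM in wild type and 1.59, 2.03 and 2.02 with SN-011, beside 2.19, 1.75 and 1.80 with PBS. Without either wild-type replicate 1 or 2, Slfn4, Ubd and Gm4841 were not called, with adjusted p between 0.0572 and 0.125. Ubd was also lost without each PBS library, SN-011 replicate 3 or wild-type replicate 3, Gm4841 without PBS replicate 2 or 3, and Slfn4, Ubd, Gm4841 and Oas3 in the fit of the 6 libraries. Over the 107 genes raised in both groups, the SN-011 minus PBS difference was negative for 97, with an unadjusted p under 0.05 for 73 and an adjusted p of at least 0.168 for all. The medians over the 107 were 1.45 with SN-011 and 2.00 with PBS. All PBS libraries were Y-positive and those with SN-011 were mixed, so sex was not balanced between them. With the Y-linked term, the SN-011 minus PBS median went from -0.74 to -0.59 for antiviral effectors and from -0.59 to -0.29 for the GTPases. It went from -0.41 to -0.32 for MHC class I, from -0.31 to -0.05 for MHC class II and from -0.41 to -0.29 for M7core. For interferon signalling genes and sensors it went from -0.16 to -0.15.

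**Figure D4:**
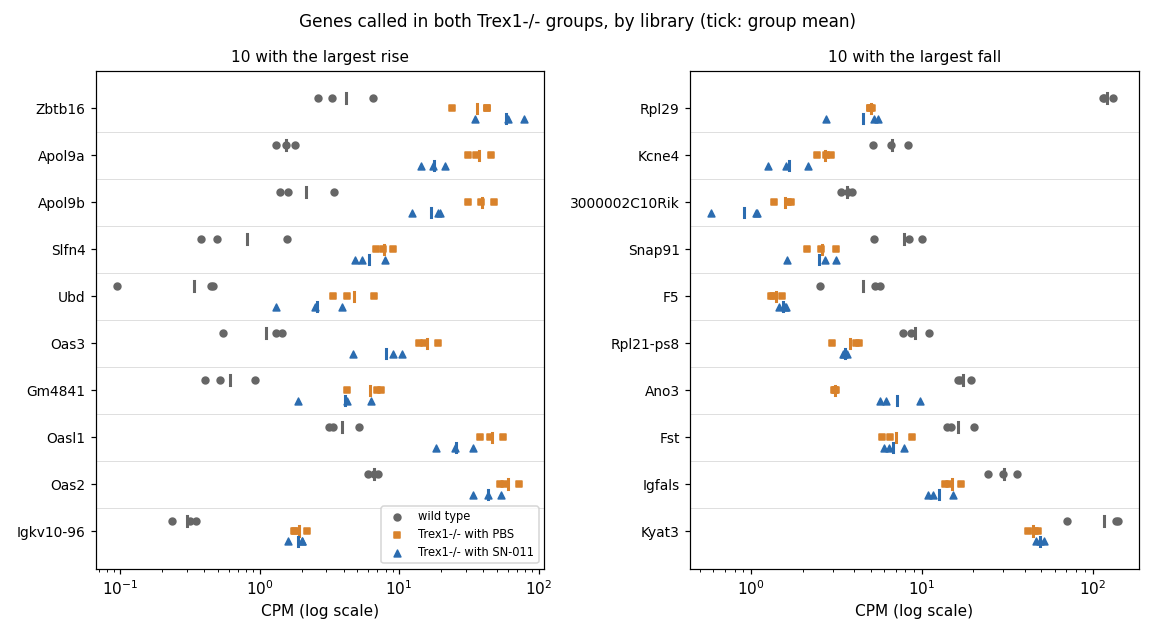
CPM on a log axis in each library for the 10 genes raised most (left) and the 10 lowered most (right) among those called in both Trex1-/- groups, with a mean of at least 1 CPM and no overlap between SN-011 and wild-type libraries, with circles for wild type, squares for PBS, triangles for SN-011 and a tick at each group mean. The SN-011 triangles lie between wild type and PBS for Apol9a and Oas3 and among or beyond the PBS squares for Zbtb16, Kcne4 and 3000002C10Rik.

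The 25 genes lowered in both groups had medians of -1.09 with SN-011 and -1.11 with PBS. Rpl29, a protein of the large ribosomal subunit with processed copies in the genome, had 115.0, 116.6 and 130.8 CPM in wild type, 5.27, 5.51 and 2.73 with SN-011 and 4.96 to 5.12 with PBS, a fall by 4.74 on the log2 scale (SE 0.21, adjusted p = 6.33e-06). It lies on chromosome 9 from 106429454 to 106431568 (mm10, plus strand), 2.63 Mb from Trex1. Among 209 tested genes within 10 Mb of Trex1, 2 rose and 2 fell with SN-011, namely Atrip, Slc38a3, Rpl29 and 3000002C10Rik. They were 1.91% of the region's genes, beside 1.28% over all genes tested, and with the Y-linked term 3 rose and 11 fell (6.70%), beside 3.94%. Atrip, a partner of the checkpoint kinase ATR whose annotated span covers Trex1 (chromosome 9, 109057933 to 109074124, minus strand), had 16.1, 15.4 and 14.4 CPM in wild type and 37.1, 37.6 and 37.2 with SN-011, a rise of 1.29 ± 0.10 (adjusted p = 0.000321). Slc38a3, a glutamine transporter of the tubule, rose by 0.76 ± 0.12 (adjusted p = 0.0168), and 3000002C10Rik, a transcribed pseudogene 0.768 Mb from Trex1, fell by 2.00 on the log2 scale (adjusted p = 0.00908). DNA linked to the knocked-out gene and the loss of TREX1 cannot be told apart for these 4 genes. Slc38a3 was not called without wild-type replicate 1 (adjusted p = 0.0826), nor 3000002C10Rik in the fit of the 6 libraries (adjusted p = 0.0508), while Rpl29 and Atrip were called in all 18 alternatives. The number lowered in this region became 9 without SN-011 replicate 2 or with no filter on low counts, 4 without SN-011 replicate 1 or wild-type replicate 3, 12 by the DESeq2 Wald test and 7 by the exact test.

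Outside this region, Kcne4, a regulatory subunit of voltage-gated potassium channels, had 8.30, 5.19 and 6.60 CPM in wild type, 1.25, 2.14 and 1.60 with SN-011 and 2.42 to 2.92 with PBS, and fell by 2.00 on the log2 scale (SE 0.26, adjusted p = 0.00808). Fst, the activin-binding protein follistatin, fell by 1.28 (adjusted p = 0.0185), and Igfals, which carries insulin-like growth factors in a complex, by 1.26 (adjusted p = 0.00937). Kyat3, a kynurenine aminotransferase, had 140.8, 137.6 and 71.0 CPM in wild type and 52.0, 48.8 and 46.2 with SN-011, a fall by 1.25 (adjusted p = 0.025). The coagulation factor gene F5 fell by 1.55, Snap91, which acts in clathrin-mediated vesicle recycling, by 1.66, and the pseudogene Rpl21-ps8 by 1.37. Snap91 also lies on chromosome 9, from 86765923 to 86880654, and whether DNA linked to Trex1 enters its fall was not tested. Ano3, an anoctamin of the TMEM16 family, had 19.3, 16.3 and 16.7 CPM in wild type, 5.67, 6.14 and 9.68 with SN-011 and 3.05 to 3.15 with PBS. Its SN-011 libraries lay between the other groups, with falls of 1.28 with SN-011 and 2.49 with PBS. Of the 25 genes lowered in both groups, 4 had an unadjusted p under 0.05 between SN-011 and PBS. Among these 10, F5, Kyat3, Snap91, Fst and Ano3 were not called without either wild-type replicate 1 or 2 (adjusted p 0.0538 to 0.148), nor Rpl21-ps8 without wild-type replicate 1 (adjusted p = 0.0533). F5 and Snap91 were also lost without each PBS library and without SN-011 replicate 1, F5 without SN-011 replicates 2 and 3, and Kyat3 without PBS replicates 1 and 3 and SN-011 replicate 3. In the fit of the 6 libraries 7 of the 10 were not called, namely F5, Ano3, Kyat3, Snap91, 3000002C10Rik, Fst and Igfals (adjusted p 0.0503 to 0.143).

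The third class, called with SN-011 while the unadjusted p with PBS was 0.05 or more, showed smaller changes, with a median of 0.46 for its 17 raised and -0.77 for its 18 lowered genes. With PBS the medians were 0.11 and -0.15, and 29 of the 35 genes differed from wild type in the same direction. All 35 had an unadjusted p under 0.05 between SN-011 and PBS, a difference that the rule for the class favours. Of the 35, 0 had an adjusted p under 0.05 by the quasi-likelihood test with all libraries, so that fit showed no gene to change under treatment alone. Over all genes, the DESeq2 Wald test called 183 between SN-011 and PBS, the exact test 127 and the quasi-likelihood test 519 without SN-011 replicate 2. Wee1, the kinase that holds CDK1 inactive before mitosis, had 24.6, 17.3 and 17.99 CPM in wild type, 48.0, 36.5 and 32.4 with SN-011 and 22.2, 19.4 and 18.7 with PBS. The SN-011 libraries were above all others, with log2 fold changes of 0.97 ± 0.17 over wild type (adjusted p = 0.0291) and 0.95 ± 0.17 over PBS (adjusted p = 0.168). Herpud1, a membrane protein that helps degrade misfolded proteins of the endoplasmic reticulum, had 376.6, 347.3 and 355.6 CPM in wild type and 528.3, 636.1 and 483.0 with SN-011, beside 327 to 351 with PBS. It rose by 0.61 ± 0.11 (adjusted p = 0.0323) and was the 1 gene called by the quasi-likelihood test of 16 for endoplasmic reticulum stress (4 at an unadjusted p under 0.05, beside 18.01% of all genes tested, 2 called by the DESeq2 Wald test, 2 by the exact test and 2 with the Y-linked term). The median of this list was 0.16 with SN-011 and -0.19 with PBS.

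The other 8 of the 10 genes raised most in the class, by the rule for named genes, had log2 fold changes of 0.43 to 0.77. Banp, a protein of the nuclear matrix, had 19.7, 18.7 and 15.1 CPM in wild type and 30.4, 31.8 and 29.0 with SN-011 (0.77 ± 0.14, adjusted p = 0.0315), with 15.1 to 21.0 with PBS. Top1, DNA topoisomerase I, rose by 0.58 ± 0.12 (adjusted p = 0.0479), Lemd3, a protein of the inner nuclear membrane, by 0.46 ± 0.10, and Paxbp1, which binds PAX3 and PAX7, by 0.59 ± 0.11. The translation factor Eif1a rose by 0.54 ± 0.10, and Spred1, an inhibitor of RAS signalling, by 0.46 ± 0.08 (adjusted p = 0.0238). Itgav, the integrin αv chain, had 162.4, 153.4 and 151.9 CPM in wild type and 209.4, 237.5 and 226.3 with SN-011, beside 166.1 to 194.0 with PBS, and rose by 0.53 ± 0.09 (adjusted p = 0.0286). Gm49336 rose by 0.43 ± 0.09. None of the 10 raised genes named here was called when wild-type replicate 2 or 3 was left out or in the fit of the 6 libraries, and 1, Wee1, was called without wild-type replicate 1. Of the 10, 8 were lost without PBS replicate 1, 8 without PBS replicate 2, 7 without PBS replicate 3, 7 without SN-011 replicate 1 and 5 without SN-011 replicate 2.

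Of the lowered members, Pde9a, a phosphodiesterase specific for cGMP, had the smallest p. It had 39.7, 38.5 and 37.8 CPM in wild type, 34.5, 32.6 and 37.9 with PBS and 19.0, 20.5 and 23.6 with SN-011. The SN-011 libraries lay below all others with a fall by 0.88 on the log2 scale (SE 0.10, adjusted p = 0.00432), and Pde9a was the 1 gene of the class called in all 18 alternatives. Its SN-011 minus PBS difference of -0.74 ± 0.10 had an adjusted p of 0.147. Bdh1, which interconverts ketone bodies in mitochondria, had 286.8, 325.0 and 215.1 CPM in wild type and 116.5, 177.2 and 118.5 with SN-011, beside 183.6 to 237.1 with PBS, and fell by 1.005 on the log2 scale (adjusted p = 0.0417). Also among the 10 lowered most, by the same rule, were the antisense transcript Dio3os with a fall by 0.92, the cornified envelope gene Evpl by 0.89, Greb1l, a gene needed for kidney development, by 0.88, the matrix gene Fbln7 by 0.84, the LIM protein gene Fhl2 by 0.70, D630039A03Rik by 0.94 and Gm6658 by 1.65. Without wild-type replicate 2 the 1 called gene of these 10 was Pde9a, and without wild-type replicate 1 the called ones were Pde9a and Greb1l. In the fit of the 6 libraries 9 of the 10 were not called. The call was lost for 8 of them without any 1 of the PBS libraries, for 6 without SN-011 replicate 3 or wild-type replicate 3, for 5 without SN-011 replicate 1 and for 4 without SN-011 replicate 2.

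**Figure D5:**
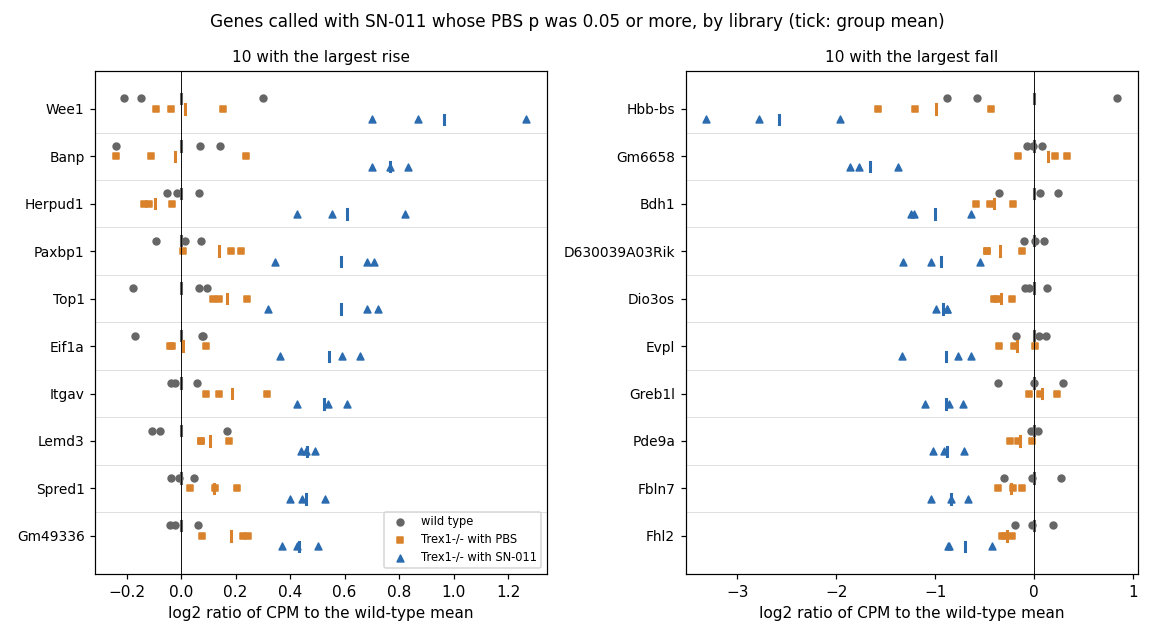
Log2 ratio of CPM to the wild-type mean in each library for the 10 genes raised most (left) and lowered most (right), under the same level and no-overlap conditions, of the 35 called with SN-011 whose unadjusted p with PBS was 0.05 or more, with circles for wild type, squares for PBS, triangles for SN-011 and a tick at each group mean. The PBS means lie within 0.2 of 0 for the raised genes and further below 0 for some lowered genes, Hbb-bs among them. The SN-011 triangles lie above 0 for all 10 raised and below 0 for all 10 lowered genes.

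The β-globin gene Hbb-bs had the largest fall of the class, with 231.7, 285.1 and 761.4 CPM in wild type, 42.9, 61.8 and 109.3 with SN-011 and 185.0, 143.0 and 313.9 with PBS. It fell by 2.58 (SE 0.51, adjusted p = 0.0424). The α-globin gene Hba-a1, from the class with a PBS p under 0.05 and chosen after its values were seen, fell by 2.92 (SE 0.48, adjusted p = 0.0205), with 45.7 to 96.0 CPM with SN-011 and 274 to 865 in wild type. Over 5 erythroid genes picked in the same way the summed level was 94.3 to 223.8 CPM with SN-011, 306 to 655 with PBS and 539 to 1741 in wild type, and blood left in the tissue was not measured. Hbb-bs was not called in 9 of the 18 alternatives, namely the fit of the 6 libraries and those without each wild-type library, each PBS library and SN-011 replicates 1 and 2, with adjusted p values of 2.93e-05 to 0.119 over all 18. Hba-a1 was not called without SN-011 replicate 1 or in the fit of the 6 libraries.

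Plvap, which forms the diaphragms of fenestrated endothelium, was the 1 gene called by the quasi-likelihood test among 14 podocyte and endothelial genes (5 at an unadjusted p under 0.05, beside 18.01% of all genes tested, 1 called by the DESeq2 Wald test and 1 by the exact test). It had 384.5, 387.6 and 458.0 CPM in wild type and 267.2, 282.1 and 302.5 with SN-011, a fall by 0.53 (SE 0.10, adjusted p = 0.0383), and 291 to 313 with PBS (unadjusted p = 0.00173). The call was lost without each wild-type library, each PBS library or SN-011 replicate 1 and in the fit of the 6 libraries. Palld, the actin-bundling protein palladin, chosen after its values were seen, lay above wild type in all SN-011 libraries and below it in all PBS libraries. It had 76.2, 69.8 and 74.98 CPM in wild type, 105.7, 106.1 and 92.1 with SN-011 and 62.9, 67.1 and 59.5 with PBS, a rise of 0.46 ± 0.09 (adjusted p = 0.0376), and the call was lost in those fits too and, unlike that of Plvap, with the Xist libraries alone (adjusted p = 0.0527).

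Heat shock genes, chaperones induced by misfolded protein, were above wild type in 12 of 12 cases with SN-011, although 0 of them passed the quasi-likelihood test (8 at an unadjusted p under 0.05, beside 18.01% of all genes tested, 4 called by the DESeq2 Wald test and 3 by the exact test), and their median was 0.60 with SN-011 and -0.16 with PBS. Hspa1b, an inducible HSP70, had 82.1, 73.0 and 68.7 CPM in wild type, 277.5, 548.8 and 94.5 with SN-011 and 48.9 to 53.6 with PBS. The SN-011 libraries differed among themselves more than those of the other groups, and the log2 fold change of 2.04 ± 0.46 had an adjusted p of 0.067 in the group fit and of 0.0332 with the Y-linked term. Hsph1, a co-chaperone of HSP70, differed from wild type by 0.93 ± 0.24 (adjusted p = 0.0888). Its levels were 270.9, 467.7 and 204.1 CPM with SN-011 and 152.2 to 173.6 in wild type, so that SN-011 replicate 2 was highest for both genes. Without SN-011 replicate 3, which had the lowest level of both in its group, 6 of the 12 were called.

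Apart from Plvap in the podocyte and endothelial list and Herpud1 in the endoplasmic reticulum list, the lists for the kidney's own functions, injury and metabolism gave little. By the quasi-likelihood test no gene was called of 18 for tubular injury, 16 for fibrosis and matrix, 21 of the proximal tubule, 19 of the distal nephron and collecting duct, 14 for complement, 20 cytochromes P450, 26 for conjugation and NRF2 targets, 18 drug transporters, 18 of the circadian clock, 19 for fatty acid oxidation, 21 for cholesterol synthesis, 18 of the cell cycle, 14 p53 targets or 16 of oxidative phosphorylation, and median log2 fold changes ran from -0.28 for cholesterol synthesis to 0.62 for the cell cycle. Of these 258 genes, from lists put together because they held no called gene, 41 (15.89%) had an unadjusted p under 0.05, 16 (6.20%) were called by the DESeq2 Wald test and 11 (4.26%) by the exact test, beside 18.01%, 4.90% and 3.61% of all genes tested. The Y-linked term, which called 3.94% of all genes, gave 1 drug transporter higher and 3 lower and 1 proximal tubule gene each way. It lowered 3 genes for cholesterol synthesis, 2 cytochromes P450 and 2 genes for fatty acid oxidation. Raised were 2 genes for conjugation and NRF2 targets, 1 for complement and 1 for fibrosis and matrix, and the other lists had none. Slc5a2, the glucose carrier SGLT2 of the early proximal tubule, had 416.5, 399.5 and 358.7 CPM in wild type and 250.4, 250.1 and 330.3 with SN-011, and missed the threshold (log2 fold change -0.50 ± 0.13, adjusted p = 0.0867) while it was called with PBS (-0.71, adjusted p = 0.0163). Insig1, a sterol-regulated brake on cholesterol synthesis, differed by -0.92 ± 0.20 (adjusted p = 0.0604). Krt20, a keratin of injured tubules, had 0.471, 0.632 and 0.521 CPM in wild type and 2.38, 1.28 and 1.01 with SN-011 without passing the test (adjusted p = 0.101). Cubn, an uptake receptor of the proximal tubule, differed by -0.32 ± 0.10 (adjusted p = 0.154). Markers of fat and muscle summed to 115 to 165 CPM with SN-011 and 163 to 408 in wild type, with 0 of 7 tested called by the quasi-likelihood test (3 at an unadjusted p under 0.05, beside 18.01% of all genes tested, 1 by the DESeq2 Wald test and 0 by the exact test), and the adrenal gene Cyp11b1 was at most 0.0579 CPM.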

How the data were processed

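The authors sequenced polyA RNA of kidney in 9 libraries and deposited raw counts per Ensembl gene for each. Per the submitters' processing notes, reads were aligned with HISAT2 to mm10 and counted with featureCounts, with unique pairs counted per the study's methods. Versions, annotation release and strand setting were not given in the sources used here, so reads of overlapping genes, antisense partners and near-identical copies cannot be separated with certainty.

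Groups came from the sample titles. Counts were filtered with filterByExpr (at least 10 counts, total 15), which left 16646 genes, scaled with TMM factors and tested with edgeR's quasi-likelihood test (edgeR 4.0.16, limma 3.58.1, R 4.3.3) in 1 fit of all 9 libraries, with Benjamini-Hochberg adjustment over all genes tested and a threshold of 0.05. A gene was called at an adjusted p under that threshold. The study's methods name edgeR with TMM, and its exact test was run as an alternative. Fold changes are log2 values from the fit at its default settings. Errors, written as SE or after ±, are the absolute log2 fold change divided by the square root of the F statistic. Alternatives were DESeq2 (1.42.0) size factors and Wald test, upper-quartile factors, no filter beyond 1 read, a mean of at least 50 counts, the 6 libraries of each contrast, a replicate block, a Y-linked term (libraries above 10 CPM of Y-linked transcripts) and each library left out in turn. In data simulated for SN-011 against wild type over 16646 genes, 69% of genes changed 2-fold and 91% of those changed 4-fold were recovered, with 6 unchanged genes called.

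Named were genes of the cGAS-STING pathway, the 10 genes raised and 10 lowered most in each of 2 classes (mean of at least 1 CPM, groups not overlapping), up to 4 called members per list by p or 2 where none was called, and called genes within 10 Mb of Trex1. The members and lists were chosen with earlier results of these data known. M7core is the study's own list, derived in other cells. Gene positions came from GENCODE vM21, where 54495 of 54532 identifiers matched, and promoters from RefSeq (GRCm38.p6). Same-numbered libraries had correlations of deviations from -0.29 to 0.24, so the numbers did not pair the samples.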

Additional observations from a re-analysis of the deposited data

Results flagged for a closer look

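Palld, which encodes the actin-bundling protein palladin, lay above the wild-type libraries in all 3 SN-011 libraries and below them in all 3 PBS libraries. It rose by 0.46 on the log2 scale with SN-011, while the PBS value of -0.22 relative to the same wild-type libraries did not pass the test (unadjusted p = 0.0298, adjusted p = 0.267). The SN-011 minus PBS difference was 0.68 ± 0.09 (unadjusted p = 1.33e-05) and did not pass the correction over all genes by edgeR's quasi-likelihood test (adjusted p = 0.147). Palld was chosen for this order of the groups after the values were seen, so the order itself is not a test.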

How the results depend on the processing

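Scaling with DESeq2 size factors or upper-quartile factors kept each of the 5 counts of called genes within 1.5 times its value, and turned the direction of 0 named genes. With no filter on low counts the counts were 607 for SN-011 against wild type, 707 for PBS against wild type, 127 for SN-011 against PBS, 302 called in both groups and 165 in the third class. The DESeq2 Wald test gave 816, 726, 183, 324 and 330, and the exact test 601, 683, 127, 289 and 189, in the same order. Fitting only the 6 libraries of each contrast gave 43 for SN-011, 751 for PBS, 42 in both and 1 in the third class. The Y-linked term gave 656 for SN-011, 198 for PBS and 274 in the third class. Leaving out 1 library in turn gave 38 to 376 genes for SN-011 against wild type, 153 to 774 for PBS against wild type, 0 to 519 for SN-011 against PBS, 28 to 197 in both groups and 2 to 134 in the third class. With the replicate block 231 genes were called for SN-011, 312 for PBS, 0 between SN-011 and PBS, 140 in both and 38 in the third class, and 166 of the 213 genes were among the 231. In a fit added after seeing the data, with the Xist libraries alone for SN-011 and wild type, 621 genes were called (222 higher, 399 lower), 178 of the 213 among them. Leaving out 1 library turned the direction of 3 genes that were not called, Tmem173 (-0.050 without wild-type replicate 2, up to 0.40), Ccnb1 (-0.35 without SN-011 replicate 3, up to 2.05) and Ccnb2 (-0.026 without SN-011 replicate 3, up to 1.47). The cause of these shifts was not tested. With 3 libraries a group, 2-fold differences were recovered less often than 4-fold ones in simulated data.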
